A study of Mus musculus with 14 samples.

Results

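The genes described here are 8 regulators of transcription in kidney epithelium, of the 21878 genes in the deposited tables. They were chosen by name, as Hnf4a, Hnf4g, Pax2, Pax8, Lhx1, Esrra, Ppara, and Ppargc1a, and all 8 were found in the tables of all 14 mice and passed the filter on low values. Kidney RNA was sequenced from 4 WT diabetic mice, 4 Cfb-/- diabetic mice, 3 WT control mice, and 3 Cfb-/- control mice, to ask how loss of complement factor B, the protease of the alternative complement pathway, alters the diabetic kidney. Diabetic mice ate HFD with 60% of calories from fat for 4 weeks and were then injected with streptozotocin (STZ), a toxin of pancreatic beta cells, at 60 mg/kg on 5 days. Control mice ate chow with 10% of calories from fat and were injected with buffer. All mice were male C57BL/6J, and the time in the labels is 34 weeks, with no starting point named. The labels call the deletion a knockdown in one field and a knockout in another, and in one field they describe control mice as diabetic, so the sample names, diet, and disease labels set the groups. Cfb was listed at 1.13–2.22 FPKM in the 7 Cfb-/- mice and at 56.7–131 FPKM in the 7 WT mice. HFD and STZ were given together and cannot be told apart, and the part of the kidney is not named for the sequencing, while cortex is named for other mRNA measurements of the study.

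Hnf4a and Hnf4g are nuclear receptors that hold epithelial cells in a mature state, and in the kidney they act in the proximal tubule, where they bind the genes of transporters and of lipid metabolism. Pax2 and Pax8 are paired-box factors, and Lhx1 is a LIM-homeodomain factor. All 3 take part in forming the nephron in the embryo, and they remain on at lower levels in parts of the adult tubule. Ppara is the nuclear receptor that fatty acids activate and that turns on fatty acid oxidation. Esrra is an orphan nuclear receptor of mitochondrial genes, and Ppargc1a encodes PGC-1alpha, a coactivator that binds both receptors.

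Values are FPKM, a level scaled to transcript length and library size, so that genes can be compared with each other within a mouse. Differences are given as log2(FPKM + 0.1), from limma fitted to the 14912 genes that reached 0.1 FPKM in 3 or more mice, and a call means a Benjamini-Hochberg adjusted p under 0.05 over those genes. Read depth is unknown. The sum of FPKM over all genes was 330246–488196 per mouse, and the single highest gene took 2.49–4.60% of it in the diabetic mice and 10.2–13.9% in the control mice. The median of all tested genes was higher in diabetic mice, by 0.29 on the log2 scale in WT mice and by 0.22 in Cfb-/- mice. Median-ratio scaling, which sets the typical gene equal between mice, moved these medians to 0.03 and -0.01. Directions are therefore given as deposited and after this scaling wherever they differ. The limma p-values set each difference against the spread between mice within groups, estimated over all groups together. Nothing says whether the groups were housed or processed apart, and a batch shared by a group could not be told from the group itself.

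Hnf4a had the highest level of the 8 genes in all 14 mice, with a mean of 133 FPKM over the mice, and ranked 447th of the 18011 genes listed above 0 in any mouse. Esrra at 42.1 FPKM and Pax8 at 28.6 FPKM followed, and Esrra was second in 12 mice and Pax8 in WT diabetic mice 2 and 3. The 5 other genes had means of 2.25–7.16 FPKM. Ppara at 7.16 FPKM, Pax2 at 5.71 FPKM, Ppargc1a at 5.11 FPKM, and Lhx1 at 3.87 FPKM changed places with each other from mouse to mouse, and their ranges overlapped. Hnf4g at 2.25 FPKM was the lowest in 13 mice. In the remaining mouse, WT control mouse 2, Lhx1 was lower.

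**Figure D1:**
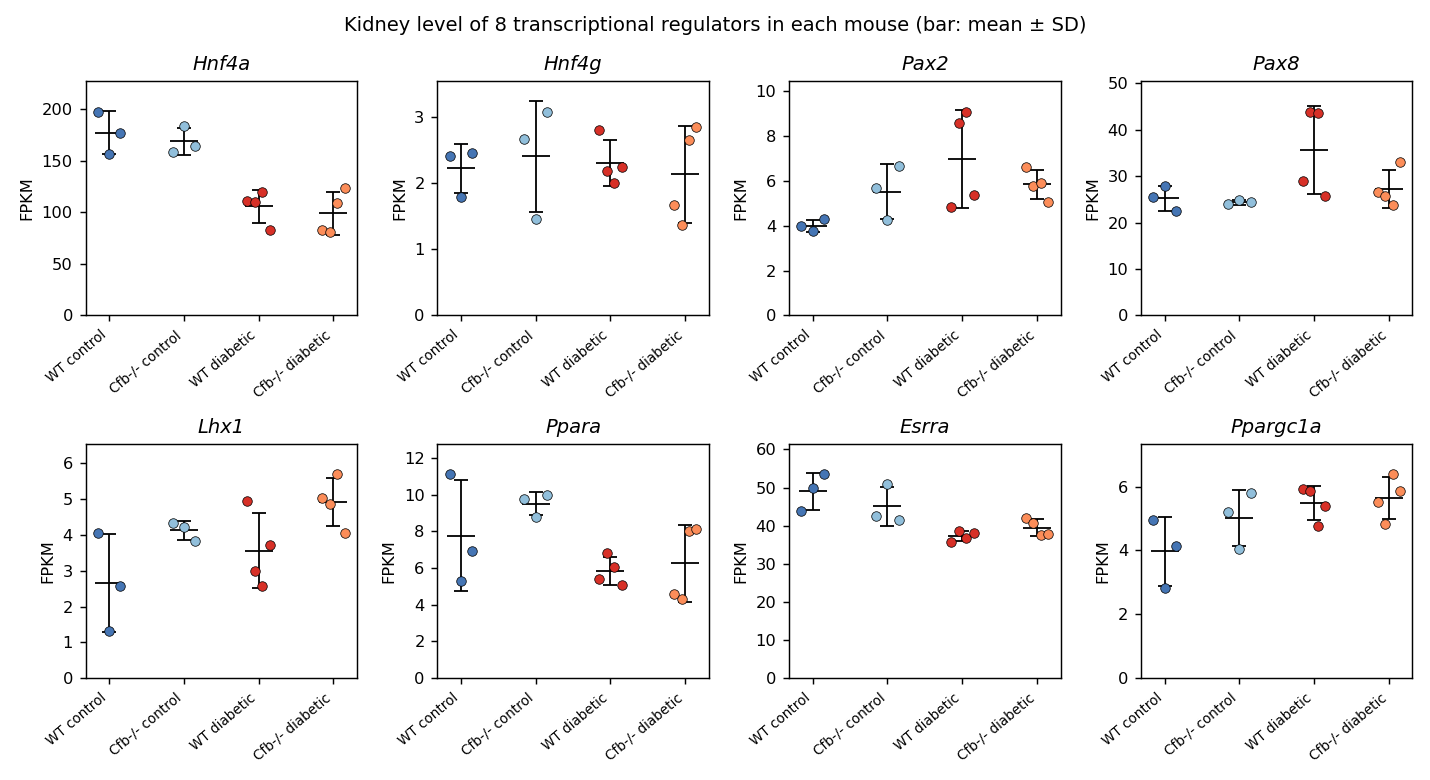
Each panel plots 1 gene, with FPKM on a linear axis from 0 and a point for each mouse in the 4 groups. Horizontal bars are the group mean and SD. All 8 diabetic mice lay below all 6 control mice for Hnf4a, whereas the groups overlapped for Hnf4g and Lhx1.

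Hnf4a was lower in diabetic mice of both genotypes, with means of 106 ± 16.2 FPKM (SD, n = 4) for WT diabetic mice against 177 ± 20.7 (n = 3) in WT control mice, and at 99.1 ± 20.8 (n = 4) in Cfb-/- diabetic mice against 169 ± 13.4 (n = 3) in Cfb-/- control mice. The WT diabetic mice were at 111, 110, 120, and 82.6 FPKM, and the WT control mice at 198, 157, and 178 FPKM. The Cfb-/- diabetic mice were at 82.5, 81.0, 109, and 123 FPKM, and the Cfb-/- control mice at 158, 184, and 165 FPKM. No diabetic mouse reached the lowest control mouse of either genotype. The level fell by 40.3% in WT mice, which is -0.75 on the log2 scale (SE 0.16, 95% interval -1.10 to -0.41, adjusted p = 0.00206). It fell by 41.4% in Cfb-/- mice, or -0.79 (SE 0.16, interval -1.14 to -0.45, adjusted p = 0.00175). Exact two-sided permutation tests over mice gave p = 0.0571 in each genotype, which is the smallest that 4 mice against 3 allow. The call held under every alternative that was run, with differences of -1.03 to -0.55 in WT mice and -1.04 to -0.69 in Cfb-/- mice.

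Hnf4a lies on chromosome 2 in the mouse build GRCm38.p6, at chr2:163506811-163572907 on the plus strand. It is transcribed from an upstream and a downstream start, and the downstream one is known as the start used in adult liver and kidney. The deposited value is 1 per gene, so the part of each start was not measured. RefSeq windows of the 250 bases before each start are shown because this gene was called in both genotypes. Capitals mark GGGCGG, the GC box that SP1-type factors are known to bind, which occurs at 44 to 39 bases before the upstream start and does not occur in the downstream window on either strand.

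Hnf4a upstream start, chr2:163506607-163506856, plus strand: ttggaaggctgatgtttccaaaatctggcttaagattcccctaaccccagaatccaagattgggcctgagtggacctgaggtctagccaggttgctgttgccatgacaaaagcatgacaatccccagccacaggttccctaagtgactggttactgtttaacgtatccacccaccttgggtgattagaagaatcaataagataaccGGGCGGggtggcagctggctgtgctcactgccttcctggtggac
Hnf4a downstream start, chr2:163546905-163547154, plus strand: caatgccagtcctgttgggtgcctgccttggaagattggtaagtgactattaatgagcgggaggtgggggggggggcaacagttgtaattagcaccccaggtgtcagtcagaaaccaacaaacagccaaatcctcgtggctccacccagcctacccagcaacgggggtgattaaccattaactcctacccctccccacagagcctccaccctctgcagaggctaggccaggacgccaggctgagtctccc

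Of the 32851 promoter windows of mouse genes in the same RefSeq table, 32.7% hold these letters on either strand. A match is a stretch of letters and not a measured binding site. CpG dinucleotides numbered 3 and 4 in the Hnf4a windows, against a median of 6 over all windows.

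The level of Hnf4a was set beside 20 genes of the mature proximal tubule, namely transporters and enzymes such as Slc34a1 and Keg1. Their summed level was 7743–8271 FPKM in WT control mice and 7672–7869 in Cfb-/- control mice, against 4397–5222 in WT diabetic mice and 3031–5186 in Cfb-/- diabetic mice. For each 1000 FPKM of that sum, Hnf4a was at 20.2–23.9 in WT control mice, 18.8–23.9 in WT diabetic mice, 20.1–24.0 in Cfb-/- control mice, and 21.1–27.2 in Cfb-/- diabetic mice. The ratio overlapped between all 4 groups, while neither quantity overlapped between diabetic and control mice. Cfb-/- diabetic mice 1, 2, and 4, at ratios of 27.2, 24.2, and 25.4, were above all control mice, and mouse 3 at 21.1 was within their range. In whole tissue, fewer proximal tubule cells and less RNA of these genes per cell cannot be told apart.

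**Figure D2:**
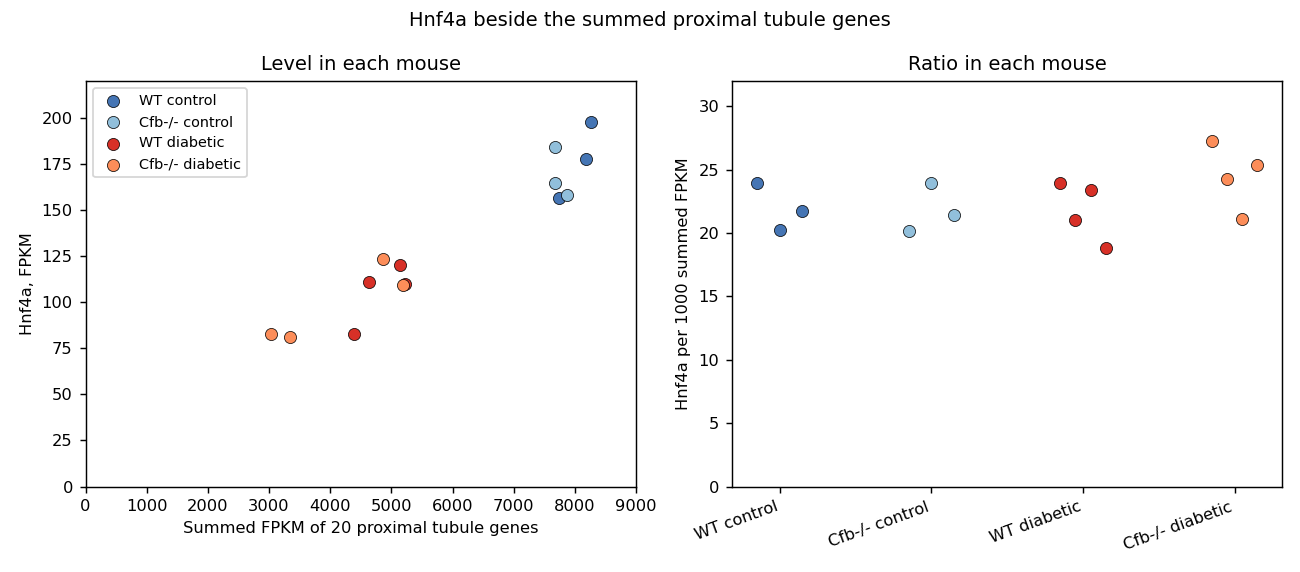
The left panel plots Hnf4a in FPKM against the summed FPKM of 20 proximal tubule genes, and the right panel plots Hnf4a for each 1000 FPKM of that sum by group, with 1 point per mouse and linear axes from 0. Diabetic and control mice were apart on both axes of the left panel. The ratios ranged over 18.8–27.2 with all groups overlapping, and Cfb-/- diabetic mice 1, 2, and 4 were the highest.

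Hnf4g, the paralog of Hnf4a at chr3:3508030-3659800, did not differ detectably in any comparison. Its group means were 2.22 ± 0.372 FPKM in WT control, 2.30 ± 0.343 in WT diabetic, 2.40 ± 0.838 in Cfb-/- control, and 2.13 ± 0.727 in Cfb-/- diabetic mice. The 95% intervals of the difference with diabetes were -0.53 to 0.64 in WT mice and -0.75 to 0.42 in Cfb-/- mice. The sign in WT mice turned negative after median-ratio scaling (-0.22). After quantile normalization Hnf4g differed by -0.47 (SE 0.28, adjusted p = 0.211) in WT mice and by -0.67 (SE 0.28, adjusted p = 0.0946) in Cfb-/- mice, close to the -0.55 and -0.69 of Hnf4a on that scale. The difference between the paralogs in their change was not tested. Hnf4a exceeded Hnf4g by 72.3 to 87.6 times in WT control mice and by 36.9 to 60.1 times in WT diabetic mice, without overlap. In Cfb-/- mice the ratio was 53.6 to 126 in controls and 41.4 to 59.5 with diabetes, which overlapped.

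Among the nephron-forming factors, Pax2 and Pax8 were higher in WT diabetic mice, and in both cases 2 of the 4 mice carried most of the difference. Pax2 was at 4.82, 8.60, 9.10, and 5.39 FPKM in WT diabetic mice and at 3.97, 3.76, and 4.30 FPKM in WT control mice. All WT diabetic mice were above all WT controls, and mice 2 and 3 stood apart. The mean was 74.0% higher, or 0.73 on the log2 scale (SE 0.21, adjusted p = 0.0124, exact permutation p = 0.0571). Among Cfb-/- mice, Pax2 was at 6.63, 5.79, 5.90, and 5.06 FPKM with diabetes and at 5.67, 4.24, and 6.67 FPKM in controls, which overlapped, with a difference of 0.10 (interval -0.36 to 0.55, adjusted p = 0.753).

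Pax8 was at 29.1, 43.9, 43.6, and 25.8 FPKM in WT diabetic mice and at 25.6, 27.8, and 22.5 FPKM in WT control mice. Mice 2 and 3 were again the highest, while mouse 4 lay within the control range. The mean was 40.9% higher, or 0.46 on the log2 scale (SE 0.17, adjusted p = 0.0444, exact permutation p = 0.114). The means of Cfb-/- mice were 27.3 ± 4.09 FPKM (n = 4) with diabetes and 24.4 ± 0.488 FPKM (n = 3) without, a difference of 0.15 (interval -0.22 to 0.52, adjusted p = 0.538). Pax8 lies at chr2:24420551-24475599 on the minus strand, and an antisense gene, Gm13415, overlaps it on the other strand. The libraries were stranded, but the strand setting of the counting is not given in the sources used here.

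WT diabetic mice 2 and 3 also had the highest levels of urothelium markers, a sum over 7 uroplakin and keratin genes of 36.9 and 51.1 FPKM. Mouse 4 was at 18.0 FPKM and mouse 1 at 0.721 FPKM, and the other groups were at 0.280–0.777 in WT control, 0.636–10.3 in Cfb-/- control, and 1.30–3.58 in Cfb-/- diabetic mice. All 7 markers were called higher in WT diabetic mice, 5 of them after quantile normalization, and 0 in Cfb-/- diabetic mice. The sum of 6 principal cell markers was 630 and 427 FPKM in WT diabetic mice 2 and 3, against 253–505 FPKM in all other mice. With both mice left out, an alternative chosen after seeing the data that also removes the highest Pax2 and Pax8 values, Pax2 differed by 0.34 (adjusted p = 0.164) and Pax8 by 0.12 (adjusted p = 0.524). Over all alternatives, the adjusted p was 0.00416–0.184 for Pax2 and 0.0103–0.524 for Pax8. Pax2 and Pax8 are known to be active in collecting duct and urothelium as well, and the part of these tissues in the result was not tested.

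Neither Pax2 nor Pax8 was called after scaling. Median-ratio scaling gave 0.46 (adjusted p = 0.0885) for Pax2 and 0.18 (adjusted p = 0.495) for Pax8 in WT mice, and both signs turned in Cfb-/- mice, to -0.14 and -0.093. Quantile normalization gave 0.38 (adjusted p = 0.184) for Pax2 and 0.45 (adjusted p = 0.0517) for Pax8 in WT mice. The 2 scalings thus differed for Pax8, which kept nearly its deposited difference under the second. In Cfb-/- mice the second gave -0.19 for Pax2 and 0.091 for Pax8. Pax8 exceeded Pax2 by 3.65 to 7.39 times over all mice.

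Lhx1, at chr11:84517975-84525534 on the minus strand, was called in no comparison. It was at 4.95, 3.0, 2.56, and 3.73 FPKM in WT diabetic mice and at 4.07, 1.33, and 2.56 FPKM in WT controls, which overlapped, with a difference of 0.50 (interval -0.11 to 1.12, adjusted p = 0.164). In contrast to Pax2 and Pax8, WT diabetic mice 2 and 3 had the lowest Lhx1 of their group. The Cfb-/- mice lay closer together, at 4.06–5.69 FPKM with diabetes and 3.83–4.32 FPKM without, and differed by 0.24 (interval -0.38 to 0.85, adjusted p = 0.550). WT control mouse 1 bore on both comparisons of the WT controls. Without it, Lhx1 was called higher in WT diabetic mice (0.87, adjusted p = 0.0151, alternatives 0.0151–0.914) and in Cfb-/- controls over WT controls (1.11, adjusted p = 0.0317, alternatives 0.0317–0.783). The second call was 1 of 1724 among all tested genes without that mouse, where 1 gene was called with every mouse kept. With every mouse kept, 46.1% of all genes were called with diabetes in WT mice.

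Of the metabolic regulators, Esrra fell with diabetes in WT mice. It was at 35.6, 38.7, 36.7, and 38.2 FPKM in WT diabetic mice and at 43.7, 49.8, and 53.5 FPKM in WT control mice, with no overlap. The difference was -0.39 (SE 0.10, interval -0.60 to -0.18, adjusted p = 0.00494, exact permutation p = 0.0571), and it stayed past the threshold under every alternative run, at -0.67 to -0.31. Esrra in Cfb-/- mice was at 42.0, 40.6, 37.5, and 37.8 FPKM with diabetes and at 42.6, 51.0, and 41.5 FPKM in controls. These groups overlapped, because Cfb-/- diabetic mouse 1 was above Cfb-/- control mouse 3. The difference was -0.19 (SE 0.10, adjusted p = 0.155), and after median-ratio scaling -0.43 (adjusted p = 0.0117, alternatives 0.0117–0.533).

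Esrra lies at chr19:6910977-6922048 on the minus strand. Its exons overlap those of Trmt112, a methyltransferase cofactor gene on the plus strand, in the GENCODE M21 annotation. Trmt112 was at 19.4–40.2 FPKM and fell too, by 0.73 on the log2 scale in WT mice (adjusted p = 6.87e-05) and by 0.34 in Cfb-/- mice (adjusted p = 0.0149). Because the strand setting of the counting is not given, reads of both genes may not be told apart in the shared exons, and the value of Esrra is uncertain to that extent. The RefSeq window of the 250 bases before the Esrra start is shown for its contrast with Hnf4a, with capitals again at the GC box, read here on the opposite strand as CCGCCC.

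Esrra, chr19:6921809-6922058, minus strand: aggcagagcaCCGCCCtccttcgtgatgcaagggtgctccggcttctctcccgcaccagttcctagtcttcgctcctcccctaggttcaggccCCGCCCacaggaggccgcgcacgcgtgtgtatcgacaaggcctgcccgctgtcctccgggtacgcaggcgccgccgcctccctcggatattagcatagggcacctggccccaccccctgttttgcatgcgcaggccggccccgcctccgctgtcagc

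The Esrra and Ppara windows hold the GC box 2 times each, Pax8 and the upstream Hnf4a window 1 time each, and 2 of the 3 Pax2 windows 1 time each, whereas the windows of Lhx1, Ppargc1a, and downstream Hnf4a do not have it. CpG dinucleotides numbered 22 in the Esrra window, 27 in Ppara, and 26 in Lhx1, all above the 3 and 4 of the Hnf4a windows. The HNF4 motif CAAAGTCCA is in 0.383% of all windows, the estrogen-related receptor element TCAAGGTCA in 0.387%, and the direct repeat 1 motif of nuclear receptors in 0.0335%. None of the 3 is in a window of the 8 genes, which says only that these letters are not in the 250 bases. Windows were found for 7 of the 8 genes, all but Hnf4g.

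Ppara was lower on average in diabetic mice of both genotypes, yet it was not called in either. The Cfb-/- diabetic mice were at 4.57, 4.32, 8.01, and 8.14 FPKM and the Cfb-/- control mice at 9.79, 8.78, and 9.98 FPKM. These groups did not overlap, although mice 3 and 4 came close to the controls. The difference was -0.66 (SE 0.25, interval -1.20 to -0.12, unadjusted p = 0.0208, adjusted p = 0.0588, exact permutation p = 0.0571). It was called after median-ratio scaling (-0.90, adjusted p = 0.0140), after quantile normalization (-0.92, adjusted p = 0.0200), and without mouse 3 (-0.79, adjusted p = 0.0298) or mouse 4 (-0.80, adjusted p = 0.0276), and over all alternatives the adjusted p was 0.0140–0.163. In WT mice, Ppara was at 5.42, 6.80, 6.06, and 5.08 FPKM with diabetes and at 11.1, 5.29, and 6.92 FPKM in controls. The spread of these 3 controls spanned nearly all WT mice, and the difference was -0.35 (interval -0.89 to 0.19, adjusted p = 0.270). It was -0.059 (adjusted p = 0.857) without WT control mouse 1, -0.59 (adjusted p = 0.104) without WT control mouse 2, and -0.63 after median-ratio scaling (adjusted p = 0.0561) or quantile normalization (adjusted p = 0.0779), and it was called under no alternative.

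For each 1000 FPKM of the 20 proximal tubule genes, Ppara was at 1.29–1.67 in Cfb-/- diabetic and 1.14–1.30 in Cfb-/- control mice, and at 1.16–1.30 in WT diabetic and 0.683–1.34 in WT control mice. The ratio overlapped between diabetic and control mice in both genotypes. In Cfb-/- mice this rested on diabetic mouse 2 at 1.29, and diabetic mice 1, 3, and 4, at 1.51, 1.54, and 1.67, were above all Cfb-/- controls. Cfb-/- diabetic mice 1 and 2, which had the lowest Ppara, also had the lowest proximal tubule sums, at 3031 and 3341 FPKM.

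Ppargc1a was higher in WT diabetic mice, at 5.92, 5.87, 4.77, and 5.39 FPKM against 4.95, 2.82, and 4.14 FPKM in WT controls. The groups overlapped, and WT control mouse 2 was the lowest of all 14 mice. The difference was 0.49 (SE 0.18, adjusted p = 0.0377, exact permutation p = 0.114). Without that mouse it was 0.27 (adjusted p = 0.220), after median-ratio scaling 0.21 (adjusted p = 0.267), and over all alternatives the adjusted p was 0.00926–0.572. For Cfb-/- mice the means were 5.65 ± 0.650 FPKM with diabetes and 5.02 ± 0.889 FPKM without, a difference of 0.18 (interval -0.21 to 0.56, adjusted p = 0.476). The sign turned to -0.06 after median-ratio scaling.

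Counted over the 8 genes, 3 were called higher in WT diabetic mice (Pax2, Pax8, and Ppargc1a) and 2 lower (Hnf4a and Esrra). Of all tested genes, 36.2% were called higher and 9.97% lower in that comparison. These 5 of 8 stood beside 46.1% of all genes. In Cfb-/- mice, 0 were called higher and 1 lower (Hnf4a), where 27.4% of all genes were called higher and 6.4% lower, or 33.8% in all. At an unadjusted p under 0.05, 5 of the 8 passed in WT mice and 2 in Cfb-/- mice, beside 54.4% and 43.5% of all genes. Groups without overlap were found for 1 gene higher (Pax2) and 2 lower (Hnf4a and Esrra) in WT mice, where 35.5% and 9.84% of all genes had such groups, and for 0 higher and 2 lower (Hnf4a and Ppara) in Cfb-/- mice, where 33.6% and 8.64% did. Whether the 8 genes differ as a set from all genes was not tested. The median difference of the 8 genes was 0.26 in WT mice and -0.03 in Cfb-/- mice. Once scaled by median ratios, 0 were called higher in either genotype, 2 were called lower in WT mice (Hnf4a and Esrra), and 3 in Cfb-/- mice (Hnf4a, Ppara, and Esrra). Of all genes, 22.7% were then higher and 22.4% lower in WT mice, near the share of the 8 that were lower, and 18.5% were higher and 14.1% lower in Cfb-/- mice. With quantile normalization 0 of the 8 were higher and 2 lower in each genotype, where 15.9% of all genes were higher and 20.1% lower in WT mice and 14.4% and 14.9% in Cfb-/- mice. The share of calls that were higher among all called genes moved from 78.4% to 50.3% in WT mice and from 81.0% to 56.8% in Cfb-/- mice with median-ratio scaling. With quantile normalization it was 44.2% in WT mice and 49.1% in Cfb-/- mice.

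**Figure D3:**
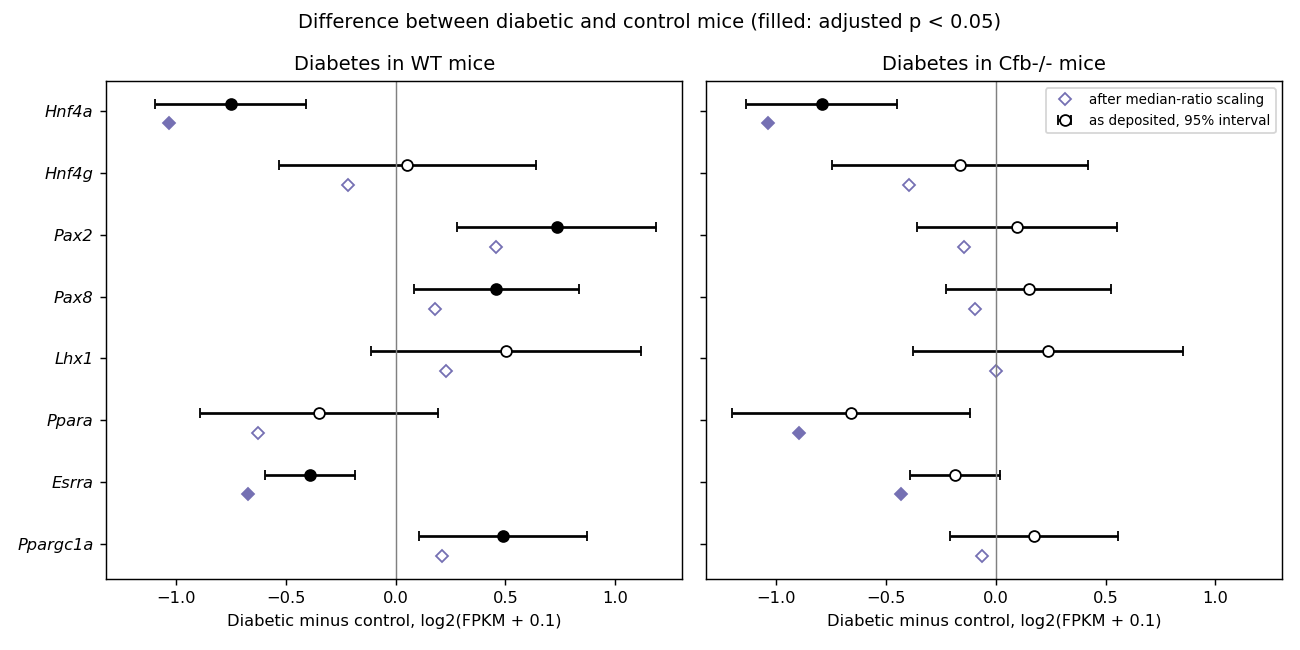
Differences between diabetic and control mice on the log2(FPKM + 0.1) scale for the 8 genes, in WT mice (left) and Cfb-/- mice (right). Circles with bars are the values as deposited with 95% intervals, diamonds the values after median-ratio scaling, and filled symbols have an adjusted p under 0.05. Hnf4a was filled on both scales in both genotypes, and the filled circles of Pax2, Pax8, and Ppargc1a in WT mice had open diamonds.

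Deletion of Cfb changed none of the 8 genes detectably, with or without diabetes. In these comparisons 0.00671% of all genes were called with diabetes and 0.00671% without it, which was Cfb itself in each case. At an unadjusted p under 0.05, 1 of the 8 genes passed in control mice, where 17.5% of all genes did, and 1 of the 8 in diabetic mice, where 3% of all genes did. In control mice this was Lhx1, with 4.13 ± 0.260 FPKM in Cfb-/- mice against 2.65 ± 1.37 in WT mice and a difference of 0.75 (interval 0.09 to 1.41, adjusted p = 0.257). In diabetic mice it was Pax8, with a difference of -0.35 (interval -0.70 to -0.01, adjusted p = 1), which was -0.02 with WT diabetic mice 2 and 3 left out. All 8 genes overlapped between genotypes in both states. Of all genes, 6.67% were higher and 7.12% lower without overlap in Cfb-/- control mice, and 1.86% and 0.885% in Cfb-/- diabetic mice. For Hnf4a, the intervals of the genotype difference were -0.43 to 0.30 in control mice and -0.42 to 0.21 in diabetic mice, and for Esrra they were -0.34 to 0.10 and -0.11 to 0.27. The widest interval in diabetic mice was that of Lhx1, -0.08 to 1.06.

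Whether diabetes acted differently in the 2 genotypes was tested as an interaction, and 0 of the 8 genes and 0 of all tested genes were called by limma. At an unadjusted p under 0.05, 0 of the 8 genes and 5.77% of all genes passed. The largest interaction was that of Pax2, whose difference with diabetes was lower by 0.64 in Cfb-/- than in WT mice (interval -1.28 to 0.01, unadjusted p = 0.0518, adjusted p = 0.779), and -0.24 with WT diabetic mice 2 and 3 left out. For Hnf4a the interaction was -0.04 (interval -0.53 to 0.45). The calls of Pax2, Pax8, Esrra, and Ppargc1a in WT mice and not in Cfb-/- mice are therefore not shown to differ between genotypes.

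The genes that work with these regulators were counted in lists, to be read against the shares of all genes given above for each scale, which as deposited were 36.2% higher and 9.97% lower in WT mice and 27.4% and 6.4% in Cfb-/- mice. Genes were named by their calls in each genotype apart, so a gene named for 1 genotype may have moved in the other as well. Of 20 other transcription factors of the tubule, 9 were higher and 2 lower in WT diabetic mice, with a median of 0.60, and 5 were higher and 2 lower in Cfb-/- diabetic mice, with a median of 0.23. The higher share in WT mice was 45%, and that of Cfb-/- mice, 25%, was near that of all genes. After median-ratio scaling, 7 were higher and 8 lower in WT mice, and 3 were higher and 4 lower in Cfb-/- mice, where the median turned to -0.015. Quantile normalization gave 7 higher and 3 lower in WT mice, with a median of 0.42. In Cfb-/- mice it gave 2 higher and 3 lower, with a median of -0.052. Osr2, a zinc-finger factor of the proximal tubule, fell in both genotypes, from 2.97 to 0.910 FPKM in WT mice (-1.61, adjusted p = 0.000233) and from 2.22 to 1.04 FPKM in Cfb-/- mice (-1.05, adjusted p = 0.00577). Maf, a leucine-zipper factor of proximal tubule cells, fell in WT mice (-0.76, adjusted p = 0.0269), and Irx3, an Iroquois factor, fell in Cfb-/- mice (-0.75, adjusted p = 0.00501). Grhl2, a factor of collecting duct and distal epithelium, rose by 1.32 (adjusted p = 0.000571) in WT mice and by 0.80 (adjusted p = 0.0173) in Cfb-/- mice, the latter not called after scaling. Mecom rose by 0.97 (adjusted p = 0.00275) and Tfap2a by 1.0 (adjusted p = 0.00844) in Cfb-/- mice, and Sim1 by 1.36 (adjusted p = 0.000843) and Irx2 by 1.32 (adjusted p = 0.00901) in WT mice. In WT mice the mean of Mecom also went from 2.25 to 5.66 FPKM and that of Tfap2a from 0.875 to 1.30 FPKM. Sim1 (1.92 to 2.64 FPKM) and Irx2 (5.39 to 8.58 FPKM) were not called in Cfb-/- mice. The other factors called higher in Cfb-/- mice were Gata3, a factor of the collecting duct, at 0.59 (adjusted p = 0.0481), and Tfap2b, a factor of the distal tubule, at 0.79 (adjusted p = 0.00653).

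Of 22 partners and cofactors of the metabolic receptors, 8 were higher and 2 lower in WT diabetic mice and 3 were higher and 1 lower in Cfb-/- diabetic mice. The shares in WT mice, 36.4% higher and 9.09% lower, were those of all genes, and the 13.6% higher in Cfb-/- mice was under that of all genes. Ppard, the close relative of Ppara, fell from 14.4 to 6.01 FPKM in WT mice (-1.23, adjusted p = 0.00300) and from 22.2 to 7.70 FPKM in Cfb-/- mice (-1.46, adjusted p = 0.00113). Rxra, with whose product PPARs pair on DNA, fell in WT mice from 28.3 to 22.2 FPKM (-0.36, adjusted p = 0.0457) and differed by -0.32 (adjusted p = 0.0823) in Cfb-/- mice. Nrip1, a corepressor of nuclear receptors, rose in WT mice by 0.74 (adjusted p = 0.00960), Ep300, an acetyltransferase, by 0.85 (adjusted p = 0.0114), and Esrrb, a relative of Esrra, by 0.75 (adjusted p = 0.0344). Pprc1, a relative of Ppargc1a, rose in Cfb-/- mice by 0.71 (adjusted p = 0.0116), and so did Rxrg, a relative of Rxra at 0.109 to 0.356 FPKM, by 1.02 (adjusted p = 0.0336). After median-ratio scaling, 3 were higher and 3 lower in WT mice and 0 higher and 2 lower in Cfb-/- mice, and after quantile normalization 0 were higher in either genotype.

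Of 19 genes of nephron development, 14 passed the filter. In WT diabetic mice 7 were higher (50.0%) and 1 lower, and in Cfb-/- diabetic mice 5 were higher (35.7%) and 1 lower. Jag1, a Notch ligand, rose from 1.29 to 3.11 FPKM in WT mice (1.21, adjusted p = 0.000244) and from 2.24 to 4.36 FPKM in Cfb-/- mice (0.90, adjusted p = 0.00241). Sall1, a zinc-finger factor of nephron progenitors, rose by 0.87 (adjusted p = 0.000139) and Wnt7b, a ligand of the collecting duct, by 2.40 (adjusted p = 0.00301) in WT mice. Wt1, a factor of podocytes in the adult kidney, rose by 1.17 (adjusted p = 0.0168) in Cfb-/- mice. Ldb1, whose product is a cofactor of LIM-homeodomain proteins such as Lhx1, rose in Cfb-/- mice from 10.3 to 15.5 FPKM (0.57, adjusted p = 0.00997), a call lost after either scaling. Cdh6, a cadherin of the early proximal tubule, rose by 1.81 (adjusted p = 4.67e-05) and Sall1 by 0.50 (adjusted p = 0.00806) in the same mice. The lower gene was Osr1, a factor of kidney progenitors, at -0.93 (adjusted p = 0.0131) in WT mice and -1.46 (adjusted p = 0.000962) in Cfb-/- mice, with group means under 1 FPKM. After median-ratio scaling, 5 were higher and 1 lower in WT mice and 3 higher and 3 lower in Cfb-/- mice, and after quantile normalization 4 and 2 in WT mice and 3 and 4 in Cfb-/- mice.

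Genes of the mature proximal tubule and known target genes of the metabolic receptors were counted in the same way. The 20 proximal tubule genes were listed as markers of that segment and not as receptor targets. Of the 20 proximal tubule genes, 0 were higher and 12 lower in WT diabetic mice, with a median of -0.65, and 0 were higher and 13 lower in Cfb-/- diabetic mice, with a median of -0.84. Slc5a2, the sodium-glucose transporter of the early proximal tubule, fell from 260 to 34.6 FPKM in WT mice (-2.99, adjusted p = 0.000385) and from 157 to 49.6 FPKM in Cfb-/- mice (-2.0, adjusted p = 0.00713). Slc5a12, a lactate transporter, fell by 2.36 (adjusted p = 0.00152) and by 1.84 (adjusted p = 0.00916) on the log2 scale. Slc6a19, an amino acid transporter, fell by 1.82 (adjusted p = 0.00233) in WT mice, and Slc22a8, an organic anion transporter, by 1.70 (adjusted p = 0.000714) in Cfb-/- mice. The mean of Slc6a19 also went from 31.5 to 11.3 FPKM in Cfb-/- mice, and that of Slc22a8 from 150 to 47.0 FPKM in WT mice. After either scaling 0 were higher and 9 to 14 lower in each genotype.

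Of 28 known target genes of PPARA, 15 were higher and 1 lower in WT diabetic mice, with a median of 0.61, and 8 were higher and 2 lower in Cfb-/- diabetic mice, with a median of 0.22. The median of all genes was 0.29 and 0.22. The higher share was 53.6% in WT mice, and in Cfb-/- mice it was 28.6%, near the 27.4% of all genes. Cyp4a14, a fatty acid hydroxylase, was at a mean of 5.76 FPKM in WT control and 211 FPKM in WT diabetic mice (5.48, adjusted p = 1.66e-05). The Cfb-/- means were 52.2 and 125 FPKM (1.56, adjusted p = 0.0583). Pdk4, which turns pyruvate away from oxidation, rose by 2.46 (adjusted p = 1.13e-05) in WT mice and by 1.12 (adjusted p = 0.00368) in Cfb-/- mice. The rises in Cfb-/- mice included Angptl4, an inhibitor of lipoprotein lipase, by 1.96 (adjusted p = 8.90e-05) and Acot1, an acyl-CoA thioesterase, by 1.0 (adjusted p = 0.00110). In WT mice the mean of Angptl4 also went from 20.3 to 43.7 FPKM, and that of Acot1 from 40.8 to 100 FPKM. Cyp4a12a, a hydroxylase known to depend on androgen, fell by 4.50 (adjusted p = 2.51e-06) and by 4.12 (adjusted p = 4.67e-06) on the log2 scale. After median-ratio scaling, 12 were higher and 4 lower in WT mice and 5 higher and 5 lower in Cfb-/- mice, with the Cfb-/- median at -0.020, and after quantile normalization 15 were higher and 1 lower in WT mice and 8 and 1 in Cfb-/- mice.

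Of 20 ESRRA and PGC-1alpha target genes, which serve mitochondrial respiration, 2 were higher and 4 lower in WT diabetic mice and 0 higher and 2 lower in Cfb-/- diabetic mice, with medians of -0.10 and -0.13. Cycs, which encodes cytochrome c, fell from 72.7 to 51.9 FPKM in WT mice (-0.49, adjusted p = 0.00700) and from 72.9 to 46.9 FPKM in Cfb-/- mice (-0.63, adjusted p = 0.00168). Sirt3, a mitochondrial deacetylase, fell by 0.45 (adjusted p = 0.00187) and by 0.38 (adjusted p = 0.00646), and Sdhb, a subunit of succinate dehydrogenase, fell by 0.57 (adjusted p = 0.00258) in WT mice. Uqcrc1, a subunit of complex III, was the fourth lower gene in WT mice (-0.29, adjusted p = 0.0317). The 2 higher genes were Perm1, a regulator of the same pathway in muscle, at 0.70 (adjusted p = 0.00776), and Idh3a, an enzyme of the citrate cycle, at 0.27 (adjusted p = 0.0264), which turned to -0.01 after median-ratio scaling. After that scaling 1 was higher and 9 lower in WT mice and 0 higher and 9 lower in Cfb-/- mice, and after quantile normalization 4 were higher and 4 lower in WT mice and 2 higher and 5 lower in Cfb-/- mice.

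**Figure D4:**
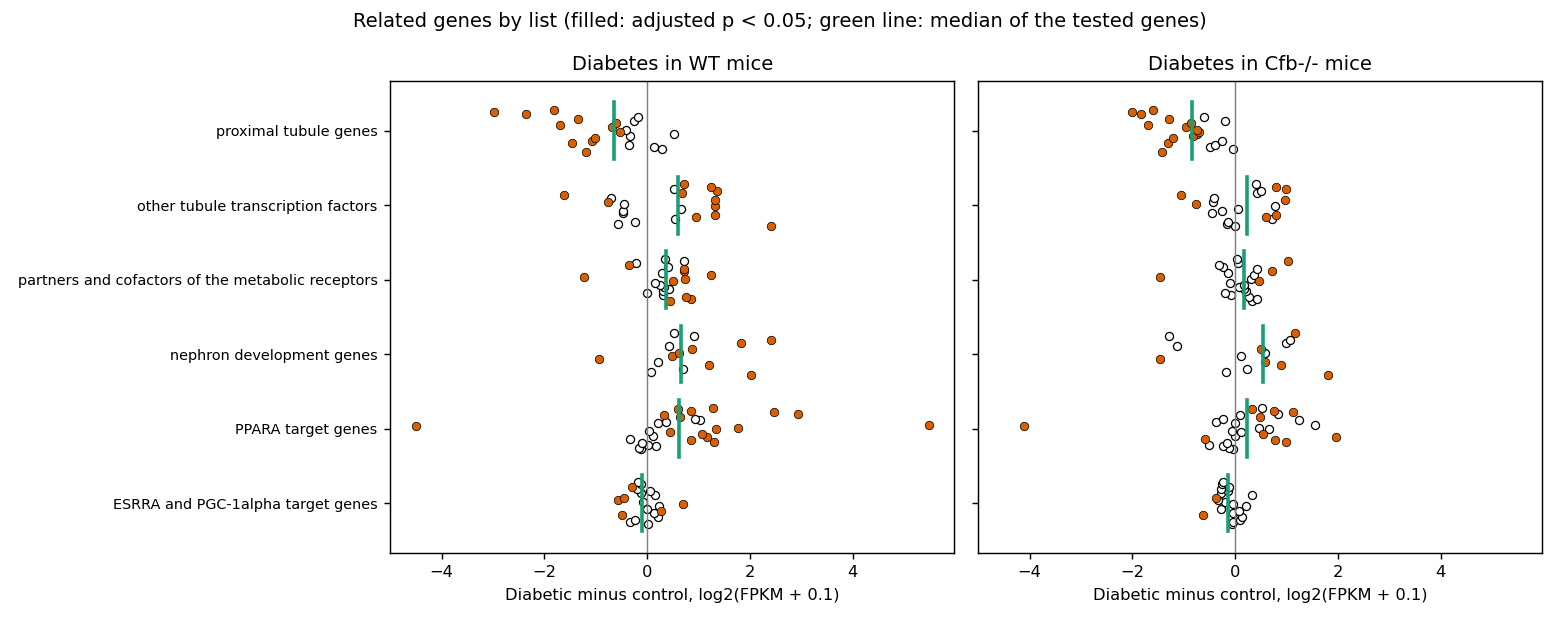
Each point is a gene of a list, placed at its difference between diabetic and control mice on the log2(FPKM + 0.1) scale, in WT mice (left) and Cfb-/- mice (right). Filled points have an adjusted p under 0.05 and the vertical bar of each row is the median of the tested genes, which was -0.65 and -0.84 for proximal tubule genes and 0.61 and 0.22 for PPARA target genes.

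Markers of injured tubule and of other cell types moved with diabetes beside these results, and their part in them was not tested. All 10 injured tubule markers were higher in both genotypes, with sums of 1811–2898 FPKM in WT diabetic and 1512–2998 in Cfb-/- diabetic mice against 375–439 and 410–499 in their controls. Havcr1, which encodes KIM-1, rose by 5.53 (adjusted p = 1.28e-07) and 4.37 (adjusted p = 1.61e-06), and Lcn2, which encodes NGAL, by 5.92 (adjusted p = 7.31e-07) and 4.26 (adjusted p = 9.29e-06). Of 6 macrophage markers, 6 were higher in WT and 5 in Cfb-/- diabetic mice, and all 6 fibroblast markers were higher in both. The other counts of higher genes, for WT and then Cfb-/- mice, were 5 and 3 of 6 for lymphocyte, 3 and 4 of 6 for endothelial, 3 and 5 of 5 for podocyte, and 2 and 2 of 3 for parietal epithelium markers. Among tubule segments they were 3 and 2 of 4 for thick limb, 0 and 1 of 4 for distal convoluted tubule, 1 and 0 of 6 for principal cell, and 2 and 2 of 5 for intercalated cell markers, with 1 intercalated marker lower in WT mice. Of all genes, 36.2% and 27.4% were higher. After median-ratio scaling the higher counts, in the same order of genotypes, were 9 and 10 for injured tubule, 6 and 5 for macrophage, 5 and 6 for fibroblast, 3 and 2 for lymphocyte, 2 and 3 for endothelial, 1 and 5 for podocyte, 2 and 1 for thick limb, and 0 and 0 for principal cell markers. Quantile normalization gave 10 and 10 for injured tubule, 6 and 5 for macrophage, 4 and 5 for fibroblast, 0 and 0 for lymphocyte, 3 and 4 for endothelial, 2 and 3 for podocyte, 4 and 2 for thick limb, and 1 and 0 for principal cell markers. Adipocyte markers, which summed to at most 7.15 FPKM in any mouse, were higher for 4 of 5 tested in WT mice, 1 after quantile normalization, and 0 in Cfb-/- mice. Skeletal muscle and adrenal gland markers summed to at most 1.74 and 0.387 FPKM.

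The 8 genes did not follow a single pattern over the mice. As a description over 14 mice that share 4 groups, Pearson's r on the log2 scale was 0.77 between Hnf4a and Ppara, and 0.78 once the group means were taken out. Lhx1 and Ppargc1a gave 0.77 and, within groups, 0.70, and Pax2 and Pax8 gave 0.63 and 0.52. Esrra and Ppargc1a, which act together, ran opposite to each other, at -0.76 and, within groups, -0.60. For Hnf4a and Esrra, the 2 genes that fell in WT mice, r was 0.63 over all mice and -0.31 within groups. All of these were taken on the values as deposited and not after scaling, so differences in scale between mice may enter them.

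The genes most like each of the 8, by r over the 14 mice on the values as deposited, among 11373 genes with a mean log2 value of at least 0, were as follows. For Hnf4a they were Aldh8a1 (0.972), 4833439L19Rik (0.971), and Fmo1 (0.970). Those of Ppara were Fut9 (0.973), Lactb2 (0.970), and Scrn3 (0.965). For Esrra, Il11ra1 (0.961), Pex6 (0.958), and Egln2 (0.948) came first, and Ppargc1a ran closest to Atg2b (0.980), Icmt (0.977), and Zfp526 (0.977). Lhx1 was nearest to Klhl3 (0.974), Zc3h13 (0.943), and Iws1 (0.941), and Pax2 to Fam117a (0.934), Ppp2r5a (0.919), and Gprc5b (0.919). The likeness was lower for Hnf4g, with Slc17a5 (0.883), Slc30a9 (0.868), and Pik3ca (0.830), and lowest for Pax8, with Gsta3 (0.828), Npy (0.820), and Slc45a3 (0.813).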

How the data were processed

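Stranded mRNA libraries of kidney RNA from 14 mice were sequenced from both ends by the authors. The authors deposited 1 FPKM value per gene and mouse, normalized by them for transcript length and library size. The headers name no unit, and FPKM was read from the values, which were not whole numbers, summed to 330246–488196 per mouse, and had lowest values that fell with transcript length (Spearman rho -0.388 over 4181 genes). The submitters' processing notes name Trimmomatic, HISAT2, Cufflinks, HTSeq, and DESeq without versions or roles, and the build GRCm38.p6. The depth per mouse is not given in the sources used here, so no counting error can be stated.

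Groups were taken from the sample names, diet, and disease labels. Genes that reached 0.1 FPKM in 3 or more mice (14912 of 21878) were fitted on log2(FPKM + 0.1) with limma 3.58.1 (R 4.3.3), with a mean-variance trend, 1 mean per group, and all 14 mice sharing 1 estimate of spread. The design had foreseen this test for FPKM. Differences were taken for diabetes in each genotype, for the deletion in each state, and for the interaction, and p-values were adjusted by Benjamini-Hochberg over all tested genes. The comparisons share groups and are not independent of each other. Single genes were also compared by exact two-sided permutation tests in scipy 1.17.1 (Python 3.11.15), whose smallest p is 0.0286 for 4 mice against 4, 0.0571 for 4 against 3, and 0.1 for 3 against 3. The fit was also run on simulated data, with independent noise and rises and falls equally likely. Those data did not hold the shift of the typical gene seen here.

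The 8 genes and all gene lists were chosen with earlier results of these data known. Named genes are the 8 genes, Cfb, and, per list and diabetes comparison, up to 3 called rises and 3 called falls with the largest difference and a mean log2 value of at least 0, members of counts of 5 or fewer, and the 3 genes most correlated with each of the 8. Trmt112 was added after values were seen. Some members of the lists are counted and not reported by name here. Uqcrc1, Gata3, Tfap2b, Rxrg, Cdh6, and Osr1 were named as members of small counts. Promoter windows came from RefSeq. Gene positions came from RefSeq and overlaps from GENCODE M21, both on GRCm38. Alternatives were other pseudocounts (0.01 and 1), no filter or a stricter one, median-ratio scaling, quantile normalization, a replicate block, the compared groups alone, each mouse left out, and, chosen after seeing the data, WT diabetic mice 2 and 3 left out together.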

Additional observations from a re-analysis of the deposited data

How the results depend on the processing

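The number of the 8 genes called was 5 with diabetes in WT mice, and it was 2 after median-ratio scaling, 2 after quantile normalization, 3 with the compared groups alone, 2 with WT diabetic mice 2 and 3 left out together, and 3 to 5 with single mice left out. Of all tested genes, 46.1% were called as deposited, 45.2% and 35.9% after the 2 scalings, and 39.6% with the compared groups alone. In Cfb-/- mice the number of the 8 genes called was 1, and it was 3 after median-ratio scaling, 2 after quantile normalization, and 1 to 2 with each mouse left out, 2 of them without Cfb-/- diabetic mouse 3 or 4. The shares of all genes there were 33.8% as deposited, 32.6% after median-ratio scaling, and 29.3% after quantile normalization. For the deletion in control mice 0 of the 8 genes were called, and 0 to 1 with each mouse left out. The cause of these changes was not tested. Leaving out WT control mouse 1 moved the count of all genes called for the deletion in control mice from 1 to 1724, whereas the other single mice gave 1 to 11. The all-gene counts for the deletion rose from 1 to 2–4 in control or diabetic mice under the lower pseudocount, no filter, or the compared groups alone, and to at most 6 in diabetic mice when a mouse was left out. For the interaction they rose from 0 to 2 under the lower pseudocount and to at most 4 when a mouse was left out.

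Calls of Hnf4a in both genotypes and of Esrra in WT mice held in all alternatives. Of 16 alternatives, Pax2 was called in 13, Ppargc1a in 7, and Pax8 in 5 in WT mice. Signs turned only for differences that had not been called. After median-ratio scaling these were Hnf4g in WT mice (-0.22), Pax2 (-0.14), Pax8 (-0.093), and Ppargc1a (-0.064) in Cfb-/- mice, Hnf4g (-0.029) for the deletion in controls, and Ppara (-0.0067) and Ppargc1a (-0.014) for the deletion in diabetic mice. After quantile normalization they were Hnf4g in WT mice (-0.47), Pax2 (-0.19), Lhx1 (-0.083), and Ppargc1a (-0.12) in Cfb-/- mice, Hnf4a (0.097) and Hnf4g (-0.069) for the deletion in controls, and Ppara (-0.028) and Ppargc1a (-0.023) for the deletion in diabetic mice. With WT diabetic mice 2 and 3 left out together, Hnf4a (0.026), Pax2 (0.19), and Ppargc1a (-0.0071) turned for the deletion in diabetic mice, and Hnf4a (0.091) and Pax8 (0.028) for the interaction. With each mouse left out, the ranges that crossed 0 were those of Hnf4g (-0.087 to 0.13 in WT mice, -0.47 to 0.040 in Cfb-/- mice, -0.14 to 0.37 for the deletion in controls, -0.31 to 0.024 in diabetic mice), Hnf4a (-0.15 to 0.017 for the deletion in controls, -0.15 to 0.049 for the interaction), Pax2 (-0.078 to 0.24 in Cfb-/- mice), Pax8 (-0.13 to 0.025 for the deletion in controls), Lhx1 (-0.63 to 0.15 for the interaction), and Ppara (-0.10 to 0.20) and Ppargc1a (-0.025 to 0.11) for the deletion in diabetic mice.

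With the replicate number as a replicate block, Hnf4g in WT mice turned to -0.019, and Pax8 in WT mice was no longer called (0.48, adjusted p = 0.0667). Correlations of same-numbered mice were -0.39 to 0.24, and a mouse often resembled another number more. The other number was taken as the highest of several correlations, so this check cannot tell whether same-numbered mice were paired. The depth of the libraries is unknown, which limits what can be said of the lower genes, Hnf4g and Lhx1 above all.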

Other observations

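WT control mouse 2 had the highest sum of FPKM of all mice (488196) and the highest share in its top gene, Kap, an androgen-regulated gene of the proximal tubule (13.9%). It also had the lowest Lhx1 (1.33 FPKM), Pax2 (3.76 FPKM), and Ppargc1a (2.82 FPKM) of the 14 mice. Its Hnf4a (157 FPKM) and Ppara (5.29 FPKM) were the lowest of the WT controls.

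The level of Ppargc1a for Cfb-/- control mouse 2 (4.05 FPKM) was likewise the lowest of its group, as were its Hnf4g (1.46 FPKM), Pax2 (4.24 FPKM), and Ppara (8.78 FPKM), while its Hnf4a (184 FPKM) and Esrra (51.0 FPKM) were the highest of its group. The ratio of Hnf4a to Hnf4g in this mouse, 126, was the highest of the 14 mice.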
